A study of Mus musculus with 4 samples.

Results

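Cytochrome P450 families 1 to 3 hold the enzymes with which the liver oxidises drugs, other foreign compounds, steroids and fatty acids. Their levels were described in the livers of 4 ABCA1-TG mice, each measured on its own oligonucleotide array. The genes were chosen by name: a probe set counted when its annotation gave exactly 1 gene symbol of the form Cyp1, Cyp2 or Cyp3 followed by a subfamily letter and a number. Cyp2b10 was left out by that rule. This gave 43 probe sets for 38 genes, out of 22626 probe sets and 12393 genes. Another 2 probe sets carry a pair of P450 names each, Cyp2a4 with Cyp2a5 and Cyp3a41a with Cyp3a41b, and were not used. Each gene was given by 1 probe set, the one with the highest mean log2 signal, and the genes were grouped by subfamily.

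All 4 samples form 1 group. They are livers of male mice aged 5 to 6 months, of strain C57BL/6 by the labels, carrying an ABCA1 transgene and fed the NIH36 diet. The series title places the transgene on an LDL receptor -/- background, whereas the sample descriptions write LDL receptor +/-, and the labels do not settle which holds. Neither the promoter nor the species of the transgene is named, and whether an array holds 1 animal or a pool is not stated. The design text names wild-type controls, whose arrays were not analysed here, so the values below are levels and their spread between the transgenic samples, called mouse 1 to mouse 4 after the replicate number. The sample titles call them biological replicates. If the samples are nonetheless not separate animals, that spread may be technical.

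P450s are haem enzymes anchored in the membrane of the endoplasmic reticulum. They take electrons from P450 oxidoreductase, with help from cytochrome b5, and insert an oxygen atom into their substrate. In liver, many genes of these families are switched on by receptors that sense foreign compounds: the aryl hydrocarbon receptor for Cyp1 genes, and the nuclear receptors CAR and PXR for many Cyp2b, Cyp2c and Cyp3a genes. Several mouse members also differ between the sexes, and many are restricted to the perivenous zone of the lobule. In the mouse genome most subfamilies lie in tandem clusters. In the reference assembly GRCm38.p6, the 11 Cyp2c members lie on chromosome 19, the 7 Cyp2d members on chromosome 15, the 5 Cyp3a members on chromosome 5 and the 4 Cyp2j members on chromosome 4.

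The arrays were close in overall signal, with median intensities of 267 to 305 and the same trimmed mean of 1000. Abca1 varied by a log2 SD of 0.17 to 0.25 on its 3 probe sets. The hepatocyte markers, 6 of 7 measured and Alb, Apoa1 and Ttr among them, had log2 signals between 14.00 and 16.29 in all mice. Mouse 1 stood apart in markers of other tissues. All 7 skeletal muscle markers were lowest there, with a summed signal of 481 against 5713 to 8429 in the others. Its summed signal of the 4 measured bile duct markers was 252, against 485 to 658 elsewhere. The 5 exocrine pancreas markers summed to 733, 3434, 875 and 1258 in mice 1 to 4. Signal on the 18S ribosomal RNA controls was also highest in mouse 1, at a mean log2 of 9.95, with 8.76 to 8.98 for the rest. On the Gapdh and actin controls, log2 signal at the 3' end exceeded that at the 5' end in all mice. For Gapdh the excess was 1.67, 1.94, 2.03 and 2.00 in mice 1 to 4. For actin it was 1.82, 1.88, 2.12 and 2.02, again lowest in mouse 1. The part of these differences in the P450 values was not tested. Leaving out mouse 1 moved the SD of 2 members by over 1.5 times, Cyp2c55 and Cyp2j9. In bulk liver, fewer cells of a type and less RNA per cell cannot be told apart.

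The members with a wide spread between the mice were mostly of low signal. The SD between mice had a median of 0.21 log2 over the 38 genes, beside 0.26 over all 12393 genes, and ran from 0.012 for Cyp2c54 to 1.65 for Cyp2c39. Of the members, 9 (23.7%) had an SD under 0.1, as did 8.96% of all genes. With all arrays set to 1 median that count was 4 (10.5%), beside 7.93% of all genes. At a mean log2 of 8 or more, the level of 8 of the 9, the shares were 29.6% of members and 14.0% of all genes on the deposited scaling. Of all members, 5 (13.2%) had an SD over 1, as did 8.89% of all genes. The 27 members with a mean log2 signal of 8 or more had a median SD of 0.18, beside 0.19 for all 7407 genes of that level. For the 11 members below 8 it was 0.62, beside 0.53 for all 4986 such genes. Spread relative to level was measured as the SD divided by a prior SD, which limma fitted to all probe sets as a function of mean signal. Its median was 1.06 over the members and 0.96 over all genes.

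**Figure D1:**
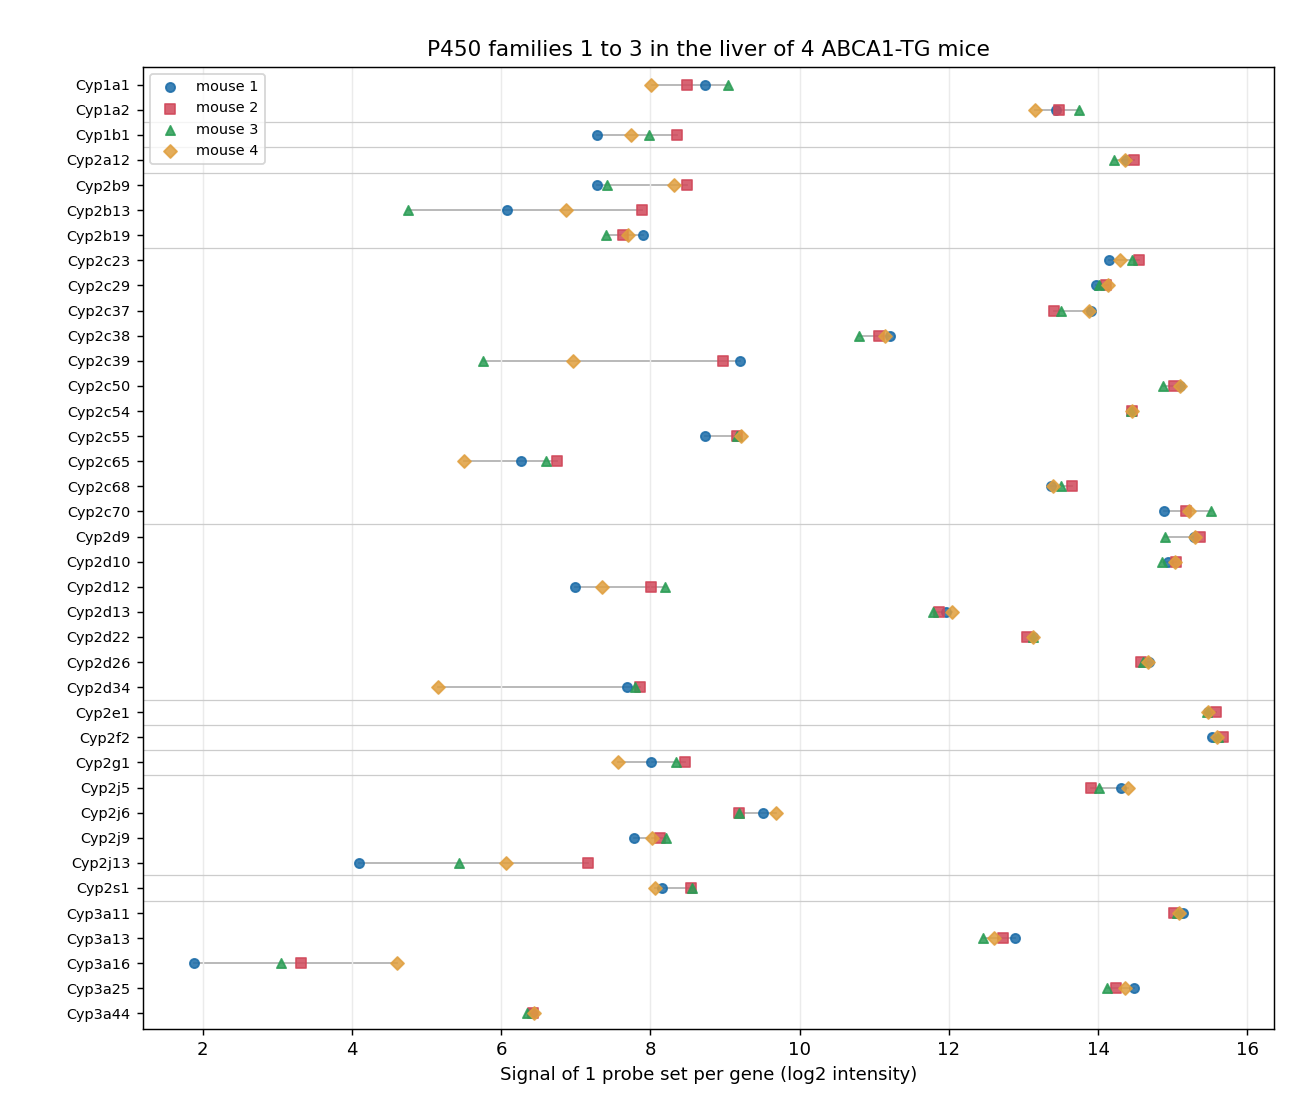
Log2 signal intensity (x axis) of 38 P450 genes (rows, grouped by subfamily between grey lines) in each of 4 ABCA1-TG mice, 1 probe set per gene; each symbol is 1 mouse and the grey bar joins the lowest to the highest. The symbols of Cyp2c54, Cyp3a11 and Cyp2e1 almost coincide, while those of Cyp2c39 run from 5.75 to 9.19. Positions of different genes on the axis are not comparable, because probe sets differ in binding.

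No P450 gene passed the test of excess spread, and neither did any other probe set. That test sets a probe set's variance between mice against limma's prior variance, with Benjamini-Hochberg adjustment over all probe sets. It called 0 of 22626 probe sets (0%), with 839 (3.71%) at an unadjusted p under 0.05. A prior fitted without robust estimation also called 0, with 921 unadjusted. Even Myh1, a skeletal muscle marker at 12.3 times the prior SD, had an adjusted p of 0.25 by this test. The widest member, Cyp2c39, lay at 4.84 times, so not passing does not show that a member's spread was ordinary. With 1 probe set per gene, 2 of 38 members (5.26%), Cyp2c39 and Cyp2d34, had an unadjusted p under 0.05, beside 3.7% of all genes. A further test asked, for 4956 genes with several probe sets, whether the probe sets of a gene share a difference between mice beyond their disagreement. It called 17 genes (0.343%) with limma's moderated variance and adjustment over those genes, and 442 (8.92%) unadjusted. None of the 4 members it could test, Cyp1b1, Cyp2d13, Cyp2d22 and Cyp2j5, passed at either threshold, with adjusted p of 0.61 to 0.75. The fold differences below are therefore descriptions of these arrays.

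**Figure D2:**
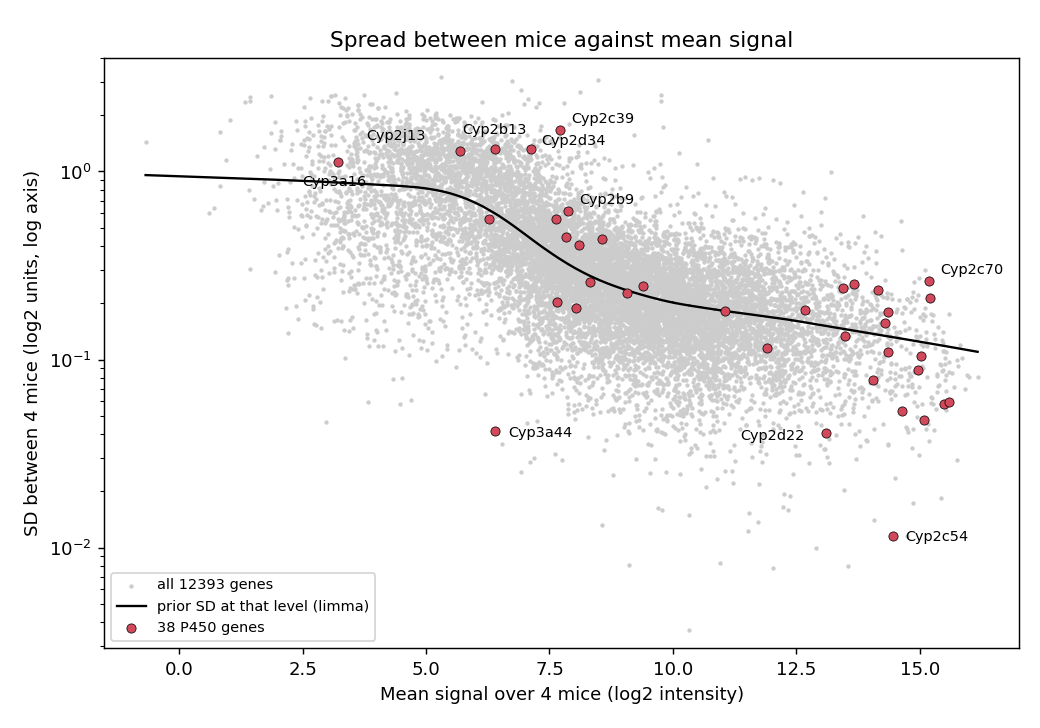
SD between the 4 mice (y axis, log2 units on a log axis) against mean log2 signal (x axis) for all 12393 genes in grey and the 38 P450 genes in red, with limma's prior SD as the black line. Cyp2c39 lies at 4.84 times and Cyp2d34 at 3.00 times the line, and Cyp2c54 and Cyp3a44 lie lowest below it among the P450 genes.

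Family 1 was followed through its 3 members. Cyp1a1, which oxidises polycyclic aromatic hydrocarbons and is the classic target of the aryl hydrocarbon receptor, had log2 signals of 8.74, 8.49, 9.04 and 8.0045 in mice 1 to 4. Its neighbour Cyp1a2, which metabolises caffeine and aromatic amines, had 13.43, 13.47, 13.74 and 13.15. Both genes were thus highest in mouse 3 and lowest in mouse 4, and this held under all 7 other settings that kept the 4 mice. Mouse 3 exceeded mouse 4 by 2.05-fold for Cyp1a1 and by 1.498-fold for Cyp1a2, with SDs of 0.44 and 0.24 (n = 4). Neither passed limma's test of excess spread (adjusted p = 0.98 for both), and the SD of Cyp1a1 was 0.27 without mouse 4. Ahr, the receptor, did not have that order on the probe set with its higher mean, with 11.84, 11.79, 11.31 and 11.66 in mice 1 to 4.

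Cyp1b1, a mostly extrahepatic enzyme that hydroxylates oestradiol, was read by 3 probe sets that disagreed. On the one with the highest mean it measured 7.29, 8.35, 7.97 and 7.74 in mice 1 to 4. On the others it measured 6.17, 5.27, 5.44 and 6.28, and 6.21, 6.14, 4.69 and 6.75. Mouse 1 was lowest on the first and near the top on the rest, so no order of the mice can be given for this gene.

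Of the Cyp2b subfamily, Cyp2b9 and Cyp2b13 are known as female-predominant genes of adult mouse liver, and Cyp2b19 as an enzyme of skin keratinocytes. Cyp2b9 and Cyp2b13 lie next to each other among the members on chromosome 7. The 250 bases before their RefSeq starts are shown because they are nearly the same, with 248 of 250 identical (99.2%). Both genes were higher in mice 2 and 4 than in mice 1 and 3. The lowest was mouse 1 for Cyp2b9 and mouse 3 for Cyp2b13. Capitals mark the 2 bases that differ between the windows, chr7:26173159-26173408, plus strand for Cyp2b9 and chr7:26061245-26061494, plus strand for Cyp2b13 (GRCm38.p6), written 5' to 3'.
Cyp2b9: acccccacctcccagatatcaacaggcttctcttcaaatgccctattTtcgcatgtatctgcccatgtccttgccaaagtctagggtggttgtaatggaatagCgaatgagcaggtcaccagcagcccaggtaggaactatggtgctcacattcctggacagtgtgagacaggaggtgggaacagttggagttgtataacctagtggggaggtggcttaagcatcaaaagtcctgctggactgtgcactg
Cyp2b13: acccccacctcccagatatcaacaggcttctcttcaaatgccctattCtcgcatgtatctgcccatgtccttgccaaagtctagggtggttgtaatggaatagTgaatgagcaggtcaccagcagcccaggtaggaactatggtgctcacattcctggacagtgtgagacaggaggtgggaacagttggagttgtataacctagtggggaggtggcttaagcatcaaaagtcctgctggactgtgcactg

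Cyp2b13 had log2 signals of 6.07, 7.88, 4.75 and 6.87 in mice 1 to 4, an 8.73-fold range with an SD of 1.32 (n = 4). The corresponding intensities were 67.2, 235.6, 27.0 and 117.3, low on these arrays. Cyp2b9 measured 7.28, 8.49, 7.41 and 8.32, a 2.31-fold range with an SD of 0.62 (n = 4). Both were highest in mouse 2 and next in mouse 4, with mice 1 and 3 below. Their spread relative to level was alike, at 2.21 times the prior SD for Cyp2b13 and 1.92 times for Cyp2b9. For Cyp2b9 the order within each pair turned with all arrays set to 1 median, and that of mice 1 and 3 also after quantile normalization. With signals under 64 raised to 64 the SD of Cyp2b13 was 0.88, and with 1 mouse left out it lay between 0.91 and 1.60. Cyp2b19 measured 7.90, 7.63, 7.41 and 7.70 and had the smallest SD of the subfamily, 0.20 (n = 4). All 3 Cyp2b genes were below the mean of the other mice in mouse 3, where 59.8% of all genes were above it.

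The Cyp2c subfamily, the largest here with 11 members, contained both ends of the range of spread. Its enzymes epoxidise or hydroxylate arachidonic acid and other fatty acids, and some act on retinoids, bile acids or drugs. Cyp2c39, described as a retinoic acid hydroxylase, had log2 signals of 9.19, 8.97, 5.75 and 6.96 in mice 1 to 4. In intensity these were 585.4, 501.7, 53.9 and 124.5. Mice 1 and 2 were close, mouse 4 lay below them and mouse 3 lowest, in all a 10.9-fold range. Its SD of 1.65 (n = 4) was 4.84 times the prior SD, with an unadjusted p of 0.0026 by limma and an adjusted p of 0.98. It lay between 1.23, without mouse 3, and 1.93, without mouse 4, over 11 other settings.

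Cyp2c38, next to it among the members on chromosome 19, measured 11.21, 11.06, 10.80 and 11.15, a 1.33-fold range with an SD of 0.18 (n = 4). Mouse 3 was lowest for both genes, by less in Cyp2c38. The 250 bases before their starts are shown because they resemble each other while the genes differed in spread. A global alignment with the Cyp2c39 start printed below gave 201 identical bases over 265 columns (75.8%). RefSeq lists another Cyp2c39 start, with the window chr19:39510572-39510821, plus strand, on the other side of the Cyp2c38 window. That window gave 71.0%, and which start these livers used was not tested. Capitals mark the forkhead motif TGTTTAC, searched on both strands. The printed windows are chr19:39463076-39463325, minus strand and chr19:39347096-39347345, plus strand (GRCm38.p6).
Cyp2c38: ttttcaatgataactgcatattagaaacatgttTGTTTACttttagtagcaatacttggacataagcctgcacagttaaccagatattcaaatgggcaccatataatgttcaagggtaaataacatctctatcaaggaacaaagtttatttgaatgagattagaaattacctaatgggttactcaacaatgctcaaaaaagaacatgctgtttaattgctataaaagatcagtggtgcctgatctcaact
Cyp2c39: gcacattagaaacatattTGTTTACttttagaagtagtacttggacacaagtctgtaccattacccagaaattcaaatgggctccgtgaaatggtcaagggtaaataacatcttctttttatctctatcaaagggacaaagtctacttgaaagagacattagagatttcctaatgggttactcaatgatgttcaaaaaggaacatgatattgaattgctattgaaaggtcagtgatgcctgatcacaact

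Cyp2c54 had the smallest SD of the members on the deposited scaling. It measured 14.44, 14.46, 14.44 and 14.46 in mice 1 to 4, a 1.01-fold range with an SD of 0.012 (n = 4), which is 0.09 times the prior SD. Part of that closeness depended on how the arrays were scaled: its SD was 0.020 after quantile normalization and 0.097 with arrays shifted to the same median, where Cyp2f2, Cyp2c68 and Cyp2e1 had smaller SDs. Relative to the prior SD, Cyp3a44 was lower. Cyp2c29, an epoxygenase that CAR induces, measured 13.97, 14.11, 14.01 and 14.13, and Cyp2c50 measured 15.09, 15.01, 14.88 and 15.10, with SDs of 0.08 and 0.10 (n = 4) that were 0.13 and 0.19 with all arrays set to 1 median. Cyp2c37, which makes a hydroxylated arachidonic acid, had 13.91, 13.41, 13.50 and 13.87, a 1.41-fold range in which mice 1 and 4 were above mice 2 and 3. Cyp2c70, the enzyme that makes the muricholic acids of mouse bile, measured 14.88, 15.17, 15.51 and 15.22. Its SD of 0.26 (n = 4) was 2.14 times the prior SD, with mouse 3 highest and mouse 1 lowest, and without mouse 1 it was 0.18. Cyp2c23 had 14.15, 14.55, 14.45 and 14.29, and Cyp2c68 had 13.36, 13.65, 13.51 and 13.39, both highest in mouse 2 and lowest in mouse 1. The SD of Cyp2c68, 0.13 (n = 4), was 0.080 with all arrays set to 1 median. Cyp2c55 measured 8.73, 9.15, 9.16 and 9.22 and was lowest in mouse 1, and its SD of 0.23 (n = 4) was 0.036 without that mouse. Cyp2c65 measured 6.26, 6.75, 6.60 and 5.50 and was lowest in mouse 4.

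The numbers of Cyp2c genes above the mean of the other mice were 4, 8, 5 and 7 of 11 for mice 1 to 4. As shares these were 36.4%, 72.7%, 45.5% and 63.6%, beside 42.8%, 57.9%, 59.8% and 42.9% of all genes. The median differences were -0.02, 0.07, -0.01 and 0.04 log2, beside -0.05, 0.06, 0.09 and -0.06 over all genes. The Cyp2c medians are small beside the SDs of most members. Those of mice 1 and 2 changed sign with all arrays set to 1 median, and that of mouse 3 after quantile normalization.

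**Figure D3:**
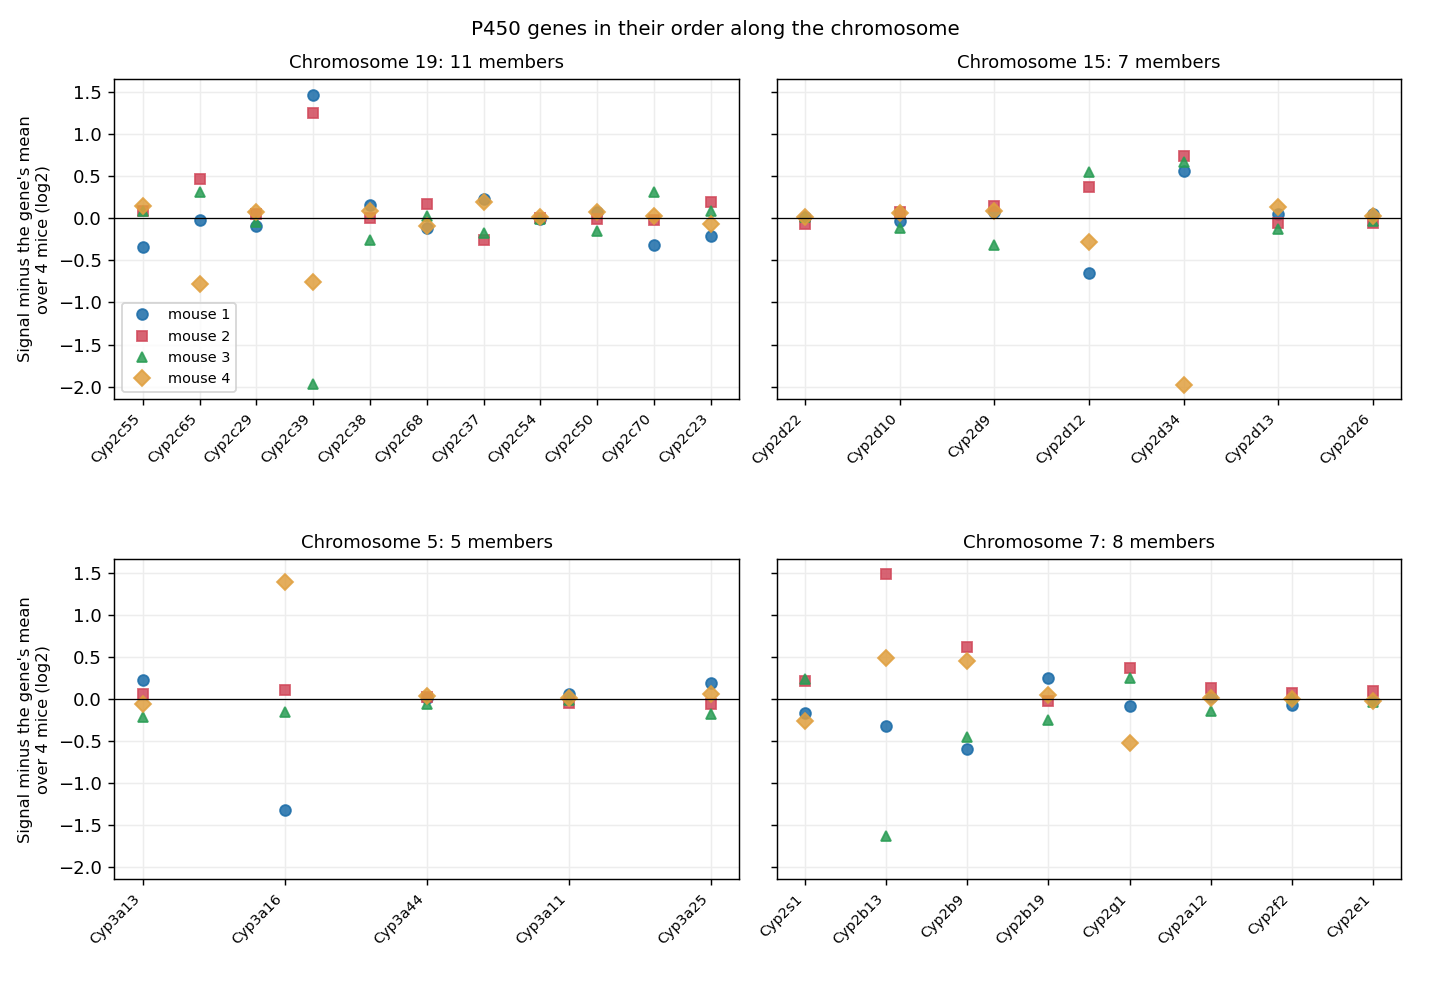
Log2 signal minus the gene's own mean over 4 mice (y axis) for the P450 members of chromosomes 19, 15, 5 and 7, in their order along the chromosome in GRCm38.p6 (x axis, not to scale); each symbol is 1 mouse. Cyp2c39, Cyp2d34, Cyp3a16 and Cyp2b13 spread widely, while their neighbours Cyp2c38, Cyp2d13, Cyp3a44 and Cyp2b9 spread less in log2 units.

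Most Cyp2d genes, relatives of the human drug-metabolising CYP2D6, were close between the mice on the deposited scaling. Cyp2d22 measured 13.13, 13.05, 13.13 and 13.13 in mice 1 to 4, with an SD of 0.04 (n = 4) that was 0.12 with arrays shifted to the same median. Its other probe set measured 12.48, 12.26, 12.54 and 12.51, and mouse 2 was lowest on both. Cyp2d26 and Cyp2d10 had SDs of 0.05 and 0.09 (n = 4), which were 0.14 and 0.15 with all arrays set to 1 median, and that of Cyp2d10 was 0.042 after quantile normalization. Cyp2d9, the male-predominant testosterone 16-alpha-hydroxylase, measured 15.28, 15.36, 14.89 and 15.30, with mouse 3 lowest by itself. Its SD of 0.21 (n = 4) was 0.04 without mouse 3. Cyp2d13, annotated in RefSeq as a transcribed pseudogene, had 11.96, 11.86, 11.78 and 12.05 on 1 probe set and 11.24, 11.23, 11.08 and 11.24 on another, lowest in mouse 3 on both. Its SD of 0.12 (n = 4) on the former was 0.21 with all arrays set to 1 median.

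The wide members of the subfamily were of low signal. Cyp2d34 measured 7.69, 7.86, 7.79 and 5.15 in mice 1 to 4, or 206.4, 232.4, 222.0 and 35.4 in intensity. Mouse 4 alone was low, at the end of a 6.57-fold range. Its SD of 1.32 (n = 4) was 3.00 times the prior SD, with an unadjusted p of 0.020 and an adjusted p of 0.98 by limma, and it was 0.09 without mouse 4. Cyp2d12 measured 6.98, 8.01, 8.19 and 7.35, with mice 2 and 3 above mice 1 and 4 and an SD of 0.56 (n = 4). The array medians were also higher in mice 2 and 3. Over the 7 Cyp2d genes the median differences of mice 1 to 4 from the others were 0.07, 0.10, -0.04 and 0.05 log2. Over all genes they were -0.05, 0.06, 0.09 and -0.06.

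Several subfamilies had a single member. Cyp2e1, the ethanol and acetaminophen oxidising enzyme of perivenous hepatocytes, measured 15.47, 15.58, 15.46 and 15.47 in mice 1 to 4. Cyp2f2, a naphthalene-oxidising enzyme known from periportal hepatocytes and airway club cells, measured 15.52, 15.67, 15.60 and 15.59. The SD of each was 0.06 (n = 4), and with all arrays set to 1 median 0.088 for Cyp2e1 and 0.077 for Cyp2f2, and the highest mouse exceeded the lowest by 1.09-fold and 1.11-fold. Cyp2a12, a steroid and bile acid hydroxylase, had 14.38, 14.48, 14.21 and 14.37, with an SD of 0.11 (n = 4). Cyp2g1, known from the olfactory mucosa, had 8.01, 8.46, 8.34 and 7.56, and Cyp2s1, an epithelial enzyme, had 8.16, 8.54, 8.56 and 8.06. In both, mice 2 and 3 were above mice 1 and 4. The median log2 signals of the arrays had the same split, at 8.12, 8.24, 8.25 and 8.06 in mice 1 to 4. The SD of Cyp2s1, 0.26 (n = 4), was 0.16 with all arrays set to 1 median.

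The Cyp2j subfamily holds epoxygenases of kidney, liver and brain. Cyp2j5 measured 14.30, 13.91, 14.01 and 14.40 in mice 1 to 4, with mice 1 and 4 above mice 2 and 3. On its second probe set it measured 9.74, 9.38, 10.26 and 9.94, where mouse 2 was again lowest but mouse 3 was highest. Cyp2j6 measured 9.51, 9.19, 9.19 and 9.68, and Cyp2j9 7.77, 8.12, 8.21 and 8.02. The SD of Cyp2j9 was 0.19 (n = 4) and 0.095 without mouse 1, its lowest. Cyp2j13 had 4.09, 7.16, 5.44 and 6.06, an 8.40-fold range at intensities of 17.0 to 142.8. Its SD of 1.28 (n = 4) was 0.57 with signals under 64 raised to 64, and 0.87 without mouse 1.

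The Cyp3a subfamily covered the main drug-metabolising enzyme of mouse liver and genes that are low in adult males. Cyp3a11, that main enzyme and a PXR target, measured 15.14, 15.02, 15.06 and 15.09 in mice 1 to 4, with an SD of 0.05 (n = 4) and a 1.08-fold range. That SD was 0.13 with all arrays set to 1 median. Cyp3a25 measured 14.49, 14.23, 14.12 and 14.36, and Cyp3a13, also an intestinal enzyme, 12.89, 12.73, 12.45 and 12.61. These 2 were highest in mouse 1 and lowest in mouse 3, under all 7 settings that kept the 4 mice, and the SD of Cyp3a25, 0.16 (n = 4), was 0.24 with all arrays set to 1 median. Cyp3a44, a female-predominant gene, measured 6.41, 6.43, 6.35 and 6.43. Its SD of 0.04 (n = 4) was 0.07 times the prior SD, and it was 0.17 after quantile normalization and 0.12 with all arrays set to 1 median. Cyp3a16, known from foetal and female liver, measured 1.89, 3.32, 3.05 and 4.61, intensities of 3.7 to 24.4 at which an order of the mice has little meaning.

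In mouse 3, 0 of the 5 Cyp3a genes were above the mean of the other mice, beside 59.8% of all genes. The differences were -0.29 log2 for Cyp3a13, -0.24 for Cyp3a25, -0.22 for Cyp3a16, -0.08 for Cyp3a44 and -0.02 for Cyp3a11. Their median is therefore the value of Cyp3a16, the gene whose signals are too low to order the mice. The median was negative under each alternative, from -0.34 with arrays shifted to the same median to -0.08 without mouse 4 or with signals under 64 raised to 64. No test was made of this median. The windows of 250 bases before the starts of Cyp3a11, Cyp3a16 and Cyp3a44 are shown because they are alike, while the SDs on the deposited scaling were 0.05 and 0.04 for Cyp3a11 and Cyp3a44 and 1.12 for Cyp3a16, whose signals are near the bottom of the scale. Cyp3a16 and Cyp3a44 shared 92.9% of alignment columns, Cyp3a16 and Cyp3a11 76.2%, and Cyp3a44 and Cyp3a11 71.7%. Capitals mark TGTTTAC and the HNF4-type element CAAAGTCCA, on either strand. The windows are chr5:145879855-145880104, minus strand, chr5:145469724-145469973, minus strand and chr5:145805875-145806124, minus strand (GRCm38.p6).
Cyp3a11: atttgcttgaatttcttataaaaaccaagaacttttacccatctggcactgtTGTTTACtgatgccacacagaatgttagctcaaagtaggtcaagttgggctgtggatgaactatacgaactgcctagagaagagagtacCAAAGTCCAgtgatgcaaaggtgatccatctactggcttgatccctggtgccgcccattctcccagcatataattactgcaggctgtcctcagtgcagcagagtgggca
Cyp3a16: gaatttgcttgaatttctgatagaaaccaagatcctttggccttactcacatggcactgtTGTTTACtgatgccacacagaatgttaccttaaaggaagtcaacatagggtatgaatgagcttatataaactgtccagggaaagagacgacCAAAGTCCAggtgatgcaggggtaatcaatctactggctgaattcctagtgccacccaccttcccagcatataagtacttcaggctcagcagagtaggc
Cyp3a44: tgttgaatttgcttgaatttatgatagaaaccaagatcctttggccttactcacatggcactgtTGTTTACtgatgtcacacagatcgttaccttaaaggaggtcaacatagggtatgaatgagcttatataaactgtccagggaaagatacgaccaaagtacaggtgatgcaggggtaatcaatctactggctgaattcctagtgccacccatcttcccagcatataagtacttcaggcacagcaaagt

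Each of these windows contained TGTTTAC, and CAAAGTCCA was found in Cyp3a11 and Cyp3a16 but not in Cyp3a44. Windows of 250 bases were at hand for 31 of the 38 members, from RefSeq. Of these 31, 6 (19.4%) contained TGTTTAC, beside 3.54% of 27025 genes of the table, and 5 (16.1%) contained CAAAGTCCA, beside 0.451%. The letters TATAAA were found in 16 (51.6%), beside 14.3%, and the nuclear receptor core AGGTCA in 11 (35.5%), beside 15.8%. Distance from the start was not considered, so the TATAAA count is not a count of TATA boxes. All were searched on both strands, and TGTTTAC and CAAAGTCCA did not overlap each other in the windows printed. Related members share ancestry, so their matches are not independent, and a match is a description of the letters.

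Members were also grouped by known biology. The perivenous P450s measured here, 7 of 8, were Cyp1a2, Cyp2c29, Cyp2c37, Cyp2c50, Cyp2c54, Cyp2e1 and Cyp3a11. Their median SD was 0.08, or 0.57 times the prior SD, with Cyp1a2 and Cyp2c37 the members above 1. The median SD depended on the scaling and was 0.13 with all arrays set to 1 median. Their summed intensity lay between 173161 and 181062 in the 4 mice. The 4 measured female-predominant members, Cyp2b9, Cyp2b13, Cyp3a16 and Cyp3a44, had summed intensities of 311, 690, 287 and 548 in mice 1 to 4. All 4 were above the mean of the other mice in mice 2 and 4, beside 57.9% and 42.9% of all genes, and 0 of 4 in mouse 3, beside 59.8%. Cyp3a44 was above by only 0.03 and 0.04 log2 and Cyp3a16 was too low to order the mice, so the count rests on Cyp2b9 and Cyp2b13. The summed intensities of exocrine pancreas markers were also higher in mice 2 and 4, and the part of this in the P450 values was not tested. Of these markers, 5 of 5 were above the mean of the other mice in mouse 2 but 3 of 5 in mouse 4. There Prss2 and Cela3b were below it, by -0.47 and -0.20 log2. Of a list of 8 P450s known mainly or also from other tissues, 5 were measured: Cyp1b1, Cyp2g1, Cyp2j5, Cyp2j9 and Cyp2s1. Their median SD was 0.26. The list does not hold every such member, as Cyp2b19, Cyp2f2 and Cyp3a13 were not on it.

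Over all 38 members, mice 1 and 3 each held the lowest value for 13 (34.2%), beside 28.9% of all genes for mouse 1 and 20.4% for mouse 3. Mouse 3 held the highest value for 6 members (15.8%, beside 33.5%) and mouse 2 the highest for 14 (36.8%, beside 29.8%). The median difference of mouse 3 from the others was -0.06 log2 over the members and 0.09 over all genes. With arrays shifted to the same median, a shift of up to 0.11 log2 for an array, the value over the members was -0.17, and after quantile normalization it was 0.012, so its sign depends on the scaling. Mice 1, 2 and 4 had member medians of -0.02, 0.10 and 0.03, beside -0.05, 0.06 and -0.06 over all genes.

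Genes that serve or control these enzymes were examined next. Of 18 partner genes, which supply electrons, haem and haem breakdown, 16 were measured, 0 passed limma's test of excess spread and 1 (6.25%), Alas1, had an unadjusted p under 0.05, beside 0% and 3.7% of all genes. Alas1, the rate-limiting enzyme of haem synthesis, measured 13.11 in mouse 1 and 14.13, 13.97 and 13.79 in mice 2 to 4. Hmox1, the inducible haem oxygenase, had the largest SD of the list, with 8.10, 8.37, 8.95 and 7.76, and Blvra, biliverdin reductase, the smallest, with 10.23, 10.23, 10.34 and 10.28. Of 33 regulators, 30 were measured, 0 passed and 2 (6.67%), Bcl6 and Onecut1, had an unadjusted p under 0.05, again beside 3.7% of all genes. Bcl6, a repressor tied to sex-dependent liver genes, measured 8.88, 9.40, 7.83 and 8.40, and Onecut1 8.45, 9.22, 9.89 and 9.52. Hnf4a, the hepatocyte nuclear factor that maintains many P450 genes, had the smallest SD of the regulators, with 14.22, 14.29, 14.20 and 14.28. Ahrr had the largest, at log2 signals of 1.93 to 4.46.

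Other genes of the lobular zones were taken as lists too. Of the perivenous list 16 of 18 were measured, with 0 at an unadjusted p under 0.05 by limma and a median SD of 0.14. Aldh1a1, a retinaldehyde dehydrogenase, had the smallest SD, at 15.08 to 15.18, and Slc1a4, an amino acid transporter, the largest, with 6.01, 7.05, 6.86 and 5.25. Of the periportal list 13 of 16 were measured, with a median SD of 0.16 and 1 gene (7.69%) at an unadjusted p under 0.05, beside 3.7% of all genes. That gene was Cdh1, E-cadherin, which measured 9.17, 9.55, 10.61 and 9.63. Apof, an apolipoprotein, had the smallest SD, at 14.04 to 14.26. In neither list did a gene pass after adjustment.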

How the data were processed

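The authors deposited signal intensities of 22690 probe sets on 4 liver arrays, not log-transformed. RMA is named in the submitters' processing notes, while the background treatment and probe summary are not given in the sources used here. Each array had a 2% trimmed mean of 1000, while the medians ran from 267 to 305, so the deposited values were not quantile normalized. Whether they are RMA output is therefore not settled. Here log2 was taken of each intensity as it stood, 64 control probe sets were left out, and gene names came from the platform annotation; looking up its Entrez identifiers in RefSeq changed 0 of 38 member symbols. No detection calls were used, so low signals are kept as deposited. With 1 group, limma 3.58.1 in R 4.3.3 compared variances between mice with a robust prior that follows mean level, and F-test p-values were adjusted over all probe sets by the Benjamini-Hochberg method at 0.05. A further F-test used genes with several probe sets, which share RNA and array. Both steps were also run on simulated data drawn from the prior fitted to these arrays. That run cannot check the prior itself, and its outcome is not reported here. With 4 arrays the 95% interval of an SD runs from 0.57 to 3.73 times its value. Upstream sequence came from RefSeq (GRCm38.p6) and was aligned with Biopython 1.88. The members and gene lists were chosen with earlier results of these data known. By rule, values in every mouse were given for members past either test, members of families 1 and 3, the widest and steadiest of each subfamily, the sex-dependent and zonal members and those whose probe sets disagree; other members are described more briefly. Of each list of other genes, the widest and steadiest were named; Ahr and those with an unadjusted p under 0.05 were added after their values were seen.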

Additional observations from a re-analysis of the deposited data

Results flagged for a closer look

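On the deposited scaling, 1 mouse lay apart from the other 3 in 5 of the 38 genes (13.2%, beside 5.91% of all genes). Its gap, as a share of the whole range, was above Dixon's 95% critical value. Chance gives this in about 5% of groups. For Cyp2d34 it was mouse 4, at 5.15 with the rest at 7.69 to 7.86. For Cyp2d9 it was mouse 3, at 14.89 with the rest at 15.28 to 15.36. For Cyp2c55 it was mouse 1, at 8.73 with the rest at 9.15 to 9.22. Mouse 2 stood apart for Cyp2e1, at 15.58 with the rest at 15.46 to 15.47, and for Cyp2d22, at 13.05 with the rest at 13.13, and both these ranges were narrow. For Cyp2e1, mouse 2 was no longer highest after quantile normalization or with all arrays set to 1 median. The flags were not recounted under other scalings, so they may depend on the scaling.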

How the results depend on the processing

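Of 220 values of 23 summary results under alternative settings, 193 stayed within the limits set for a change. With only probe sets of a mean log2 of at least 6, limma's test of excess spread called 5 of 17575 probe sets in place of 0 of 22626, and 0 of the 5 were P450 members. With signals under 64 raised to 64 it called 0, with 2342 at an unadjusted p under 0.05 in place of 839. With all arrays set to 1 median, the median differences of mice 1 to 4 were 0.051, 0.0039, -0.17 and 0.17 over the members, 0.046, -0.018, -0.13 and 0.18 over Cyp2c genes, and 0.13, 0.0036, -0.16 and 0.19 over Cyp2d genes, and that of mouse 4 over Cyp3a genes was 0.18. Quantile normalization gave 0.012 over the members, 0.034 over Cyp2c genes and 0.029 over Cyp2d genes in mouse 3, and -0.11 over Cyp3a genes in mouse 2. With signals under 64 raised to 64 the values were -0.11 for Cyp2c genes in mouse 1 and -0.081 for Cyp3a genes in mouse 3. Without probe sets ending in _s_at or _x_at, Cyp2c genes gave 0.012, -0.061 and 0.10 in mice 2, 3 and 4. With 1 mouse left out, the Cyp2c value ran from -0.090 to -0.011 in mouse 1 and from 0.041 to 0.12 in mouse 2, and the Cyp3a value of mouse 3 from -0.20 to -0.077. The cause of these changes was not tested. Of 414 SDs of single genes under alternatives, 39, in 25 genes, moved by more than 1.5 times. No paired analysis was possible because there is only 1 group. The number of arrays limits the precision of every SD.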
